A study of Homo sapiens with 6 samples.

Results

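The genes described here carry the type I interferon signal from the cell surface to the nucleus: the receptor chains IFNAR1 and IFNAR2, the receptor kinases JAK1 and TYK2, the transducer STAT2, and the interferon regulatory factors IRF1, IRF2, IRF3, IRF7 and IRF9. They were chosen as a list of 10 symbols, each to be read from its brightest probe set, by mean level. Of the 10, 9 had a probe set, out of 18417 genes in all, and each of the 9 had 1; STAT2 was not analysed here. Expression was measured on 6 Affymetrix whole-transcript arrays of A673 and SK-N-MC, established cell lines from Ewing sarcoma, which arises in bone or soft tissue and is usually driven by the fusion protein EWSR1-FLI1. Each line gave 1 array after control siRNA (its sequence is not in the labels), 1 after siDKK2, which targets the secreted Wnt modulator DKK2, and 1 after siITM2A, which targets the membrane protein ITM2A. Every culture was kept in RPMI medium with serum; no interferon treatment is named in the labels, and the time between transfection and harvest is not given there. The ITM2A siRNA carries a different number in the labels of the 2 lines, so whether they received the same oligonucleotide is not settled.

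Type I interferons bind IFNAR1 and IFNAR2, and the bound kinases TYK2 and JAK1 then phosphorylate STAT2. STAT2 and IRF9 are parts of ISGF3, which binds the interferon-stimulated response element (ISRE) of target genes. The gamma-activated sequence (GAS) is another element through which interferons act, and IRF1 is known to be induced through it. IRF3 and IRF7 act before the receptor, switching on interferon genes after the cell has sensed foreign nucleic acid, and IRF2 binds the same sites as IRF1 and can oppose it. Interferon itself raises the genes of STAT2, IRF9, IRF1 and IRF7, which are called inducible factors below. IFNAR1, IFNAR2, JAK1, TYK2, IRF2 and IRF3 are called constitutive parts. Both terms come from general knowledge of the pathway and not from these arrays.

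Promoter windows of 300 bases, 250 before and 50 after the gene start, came from RefSeq (GRCh38.p14) for 6 of the 10 genes: IFNAR1, JAK1, TYK2, STAT2, IRF1 and IRF9. The ISRE was searched as GAAANNGAAA and the GAS as TTCNNNGAA, on both strands. The GAS letters read the same on either strand, and no window of these 6 genes held both motifs. IRF9 and IRF1, the inducible factors with a window and a measured level, are shown with TYK2, a constitutive part without either motif. Capitals mark the GAS match. IRF9 lies at chr14:24161015-24161314, plus strand, IRF1 at chr5:132490724-132491023, minus strand, and TYK2 at chr19:10380523-10380822, minus strand.
IRF9: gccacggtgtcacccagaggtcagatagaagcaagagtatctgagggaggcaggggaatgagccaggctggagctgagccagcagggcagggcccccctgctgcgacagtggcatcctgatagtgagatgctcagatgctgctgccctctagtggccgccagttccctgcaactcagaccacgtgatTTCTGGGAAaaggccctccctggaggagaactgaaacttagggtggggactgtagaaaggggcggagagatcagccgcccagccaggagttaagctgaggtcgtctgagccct
IRF1: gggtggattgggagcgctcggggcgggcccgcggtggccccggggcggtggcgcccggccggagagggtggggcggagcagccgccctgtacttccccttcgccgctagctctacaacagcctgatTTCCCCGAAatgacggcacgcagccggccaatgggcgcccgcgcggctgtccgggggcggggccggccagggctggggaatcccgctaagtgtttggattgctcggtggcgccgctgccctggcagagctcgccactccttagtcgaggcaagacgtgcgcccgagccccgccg
TYK2: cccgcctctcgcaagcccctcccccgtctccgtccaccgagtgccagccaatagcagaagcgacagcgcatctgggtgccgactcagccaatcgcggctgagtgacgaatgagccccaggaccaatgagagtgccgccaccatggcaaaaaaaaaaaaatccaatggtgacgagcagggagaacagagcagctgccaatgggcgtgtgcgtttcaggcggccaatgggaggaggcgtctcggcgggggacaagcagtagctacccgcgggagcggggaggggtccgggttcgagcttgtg

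The GAS letters began 63 bases before the start of IRF9 and 124 before that of IRF1, and were in 2 of the 9 windows of the 6 genes (22.2%), against 7.66% of 35116 windows in all and 4 of the 17 windows (23.5%) of the interferon effector genes, the antiviral genes that ISGF3 is known to drive. The ISRE letters were in 0 of the 9 windows, against 3.57% of all windows and 14 of the 17 windows of the effector genes. Those 17 windows came from 11 of the 14 effector genes, so some genes count more than once. By gene, 3 of the 11 held the GAS letters and 10 the ISRE letters. For comparison, a stretch of the IFIT1 promoter with 2 ISRE matches in capitals is given (chr10:89392492-89392544, plus strand). These matches describe letters in a window and show no binding.
IFIT1: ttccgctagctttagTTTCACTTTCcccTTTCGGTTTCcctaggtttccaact

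Across probe sets, pairs of arrays within a line correlated at 0.986 to 0.991, and pairs between lines at 0.959 to 0.965. Each target was lowest with its own siRNA: DKK2 was left at 53% (A673) and 35.1% (SK-N-MC) of its control level, ITM2A at 8.86% and 9.55%. All 7 measured markers of Ewing sarcoma (of 8 listed) stood above the median gene level of 4.04, among them CD99 and NKX2-2. Leukocyte markers, from cells that answer interferon strongly, were dim in 3 of 4 measured (of 6 listed; PTPRC 1.90 to 2.09 on the log2 scale), as were 4 of 4 endothelial markers. The exception was CD68, which differed by -1.31 (A673) and -0.38 (SK-N-MC) with siDKK2; its part in the results was not tested. In cultures measured as a whole, fewer expressing cells and less RNA per cell cannot be told apart. Since a line has a single array for each siRNA, the 2 lines serve as the replicates of an siRNA difference, and nothing was tested within a line.

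Of the 9 genes, IRF9 differed most with siDKK2, and in both lines. IRF9 is the part of ISGF3 that recognises DNA. In A673 its level on the log2 scale was 6.40 with the control siRNA, 4.47 with siDKK2 and 5.96 with siITM2A. In SK-N-MC the levels were 5.00, 3.71 and 4.82. The siDKK2 array was thus the lowest of each line by more than 1 log2 unit, and the SK-N-MC siDKK2 array was the lowest of all 6. With siDKK2, 26.3% (A673) and 41% (SK-N-MC) of the control level was left, that is 3.80-fold and 2.44-fold lower values.

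The fitted difference of IRF9 with siDKK2 was -1.61 ± 0.17 (SE, n = 2 lines; 95% interval -1.99 to -1.22). After adjustment over all genes its p was 0.0566 (limma), just above the threshold of 0.05. Other settings fell on either side. Adjusted p was 0.0307 with each array centred on its median, 0.0221 among genes at or above the median level and 0.0165 with an intensity trend in the moderation. It was 0.0547 with the mean of all probe sets of a gene, 0.0716 with quantile normalization, 0.561 without either siITM2A array and 1.00 without the cell line in the fit. With 1 array of an arm left out it was 0.149 (control) and 0.137 (siDKK2) for A673, and 0.00951 (control) and 0.00463 (siDKK2) for SK-N-MC. Each of these 4 fits has 1 array in that arm and 1 residual degree of freedom, and takes the lone array to vary like the other groups. Only 0.119% of genes had a lower fitted difference, 0.206% in A673 alone and 0.0706% in SK-N-MC alone.

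The interferon effector genes were set beside IRF9. Its SK-N-MC difference was 66.8% of its A673 difference, while for the 13 of 14 effector genes that were lower in both lines the share ran from 2.13% to 49.5%, with a median of 28.6%. On the SK-N-MC control array 6 of the 14 effector genes lay below the median over genes, among them MX2, which holds the lowest share and went from 2.50 to 2.44. A gene that starts near the floor of the array has little room for a lower value, so these shares do not show that IRF9 responded more evenly. In A673 13 of the 14 effector genes had a larger difference than IRF9, and in SK-N-MC 4 did. No test compares the responses of the lines. The standard error of IRF9, 0.17, was below those of the 14 effector genes, 0.19 to 0.58. In this fit a standard error grows with the disagreement between the lines, so the same limit holds for it. The lowest adjusted p among the effector genes was 0.209 (limma). All 14 had an unadjusted p under 0.05 with siDKK2 (limma), against 8.68% of all genes. Their median fitted difference was -2.17, against -0.02 over all genes. Of the 14, 13 were lower in both lines, against 31.6% of all genes. By 1.5-fold or more in both lines 9 of the 14 were lower, against 0.418%. The effector list was chosen with earlier results of these data known, and its genes were read on the same arrays. These counts are therefore no independent evidence.

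**Figure D1:**
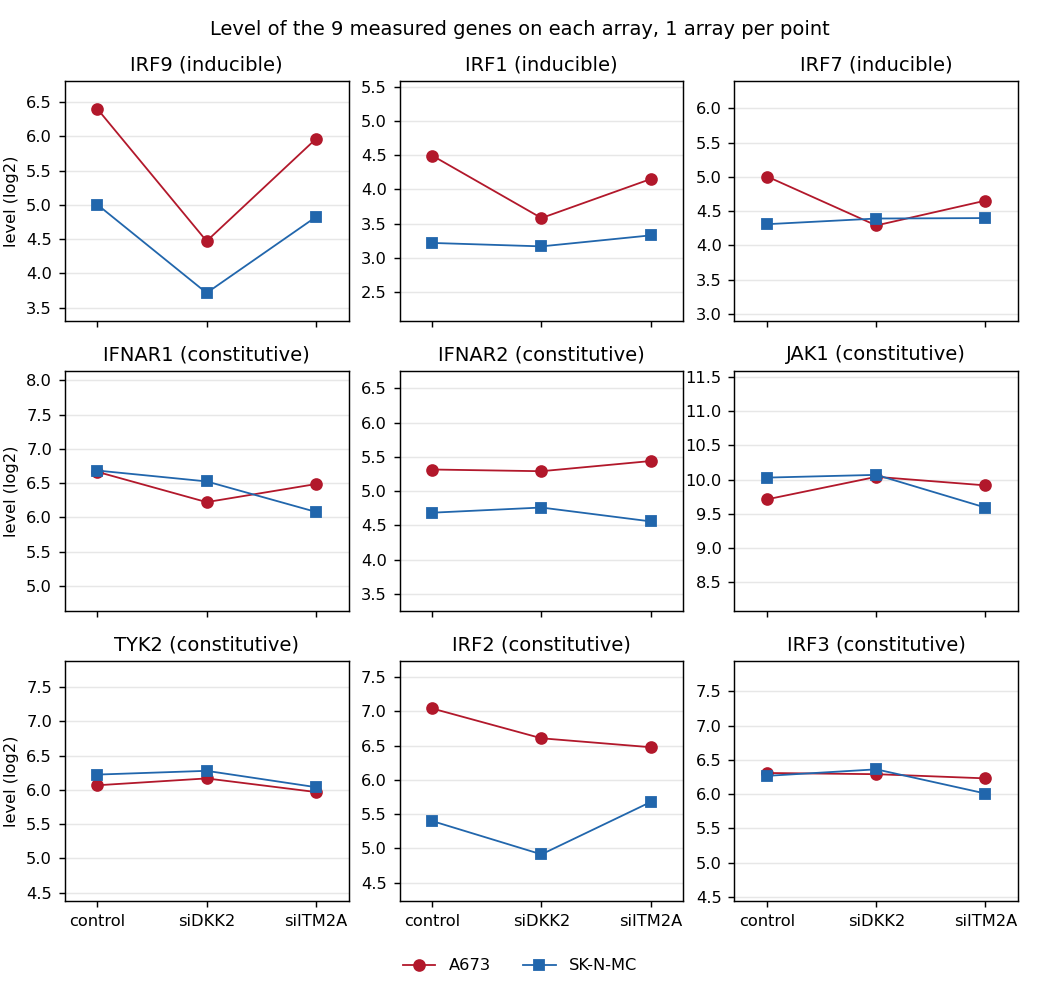
Level (log2) of each measured gene on the control, siDKK2 and siITM2A arrays of A673 (circles) and SK-N-MC (squares); lines join the arrays of 1 cell line, and every panel spans the same range of log2 units. IRF9 dips with siDKK2 in both lines (4.47 and 3.71), while IRF1 and IRF7 dip in A673 and stay between 3.17 and 3.33 and between 4.31 and 4.40 in SK-N-MC.

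IRF1 and IRF7, the other inducible factors, were lower with siDKK2 in A673 by value. IRF1 activates interferon-stimulated and antigen-presentation genes. It stood at 4.49 with the control siRNA, 3.58 with siDKK2 and 4.15 with siITM2A in A673, and at 3.22, 3.17 and 3.33 in SK-N-MC. All 3 SK-N-MC values lay below the median over genes of every array (3.96 to 4.05), and the 3 A673 values lay above all 3 of them. The siDKK2 level was 53.2% of control (A673) and 96.6% (SK-N-MC), and the fitted difference, -0.48 ± 0.20, did not pass (limma, adjusted p = 0.547). Without the SK-N-MC siDKK2 or control array it reached up to -0.81, and without either A673 array it shrank to as little as -0.15.

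IRF7, the factor that amplifies interferon production, stood at 5.01, 4.29 and 4.65 with control siRNA, siDKK2 and siITM2A in A673. In SK-N-MC the values were 4.31, 4.39 and 4.40. The A673 control array was the highest of the 6 and the A673 siDKK2 array the lowest, while the SK-N-MC arrays hardly differed. The level with siDKK2 was 61% (A673) and 106% (SK-N-MC) of control, opposite in sign between the lines, and the fitted difference was -0.32 ± 0.19 (limma, adjusted p = 0.675). It ranged from -0.63 to -0.01 over the alternatives. Over the 3 measured inducible factors the median siDKK2 difference was -0.91 (A673) and -0.05 (SK-N-MC), against -0.04 and -0.01 over all genes. With 3 genes both medians are simply the values of IRF1 and add nothing to them. IRF9 differed by -1.93 (A673) and -1.29 (SK-N-MC).

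The receptor chains showed no siDKK2 difference that passed the test. IFNAR1, which carries TYK2, stood at 6.66, 6.22 and 6.49 with control siRNA, siDKK2 and siITM2A in A673 and at 6.68, 6.52 and 6.08 in SK-N-MC. The control arrays were the highest in each line, with siDKK2 lowest in A673 and siITM2A lowest in SK-N-MC. Its siDKK2 difference was -0.30 (95% interval -0.70 to 0.10; limma, adjusted p = 0.675), and -0.05 without the A673 siDKK2 array or -0.55 without that of SK-N-MC. IFNAR2, which carries JAK1, stood at 5.32, 5.29 and 5.44 in A673 and at 4.69, 4.76 and 4.56 in SK-N-MC. The A673 values were all above the SK-N-MC values. Its siDKK2 difference was 0.03 (95% interval -0.30 to 0.35; limma, adjusted p = 0.983). In the annotation IFNAR2 overlaps a read-through gene, IFNAR2-IL10RB, so its probe set may also read that transcript.

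The kinases did not pass either. JAK1, the kinase shared by many cytokine receptors, stood at 9.71, 10.04 and 9.91 in A673 and at 10.03, 10.07 and 9.59 in SK-N-MC. With siDKK2 it differed by 0.18 (95% interval -0.20 to 0.57; limma, adjusted p = 0.807). TYK2 was among the steadiest of the 9, at 6.07, 6.17 and 5.97 in A673 and 6.22, 6.28 and 6.04 in SK-N-MC. Its siDKK2 difference was 0.08 (95% interval -0.21 to 0.37; limma, adjusted p = 0.916), an interval that leaves out a 1.5-fold change in either direction.

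The remaining regulatory factors behaved differently from each other, by value. IRF2 stood at 7.04, 6.61 and 6.48 in A673 and at 5.40, 4.91 and 5.68 in SK-N-MC, so the siDKK2 array was below the control array in both lines and the siITM2A array in A673 alone. The siDKK2 level was 74% (A673) and 71.4% (SK-N-MC) of control, and the difference of -0.46 ± 0.21 did not pass (limma, adjusted p = 0.600). It was -0.26 with no A673 control array, -0.22 without the SK-N-MC siDKK2 array and -0.70 without the siDKK2 array of A673. IRF3, which is held ready in the cytoplasm and switched on by phosphorylation, stood at 6.31, 6.29 and 6.23 in A673 and at 6.27, 6.36 and 6.01 in SK-N-MC. With siDKK2 it differed by 0.04 (95% interval -0.27 to 0.35; limma, adjusted p = 0.971). The 6 constitutive parts had a median siDKK2 difference of -0.02 (A673) and 0.05 (SK-N-MC).

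Over the list, siDKK2 against control called 0 of the 9 genes (limma, adjusted p under 0.05; 2 at an unadjusted p under 0.05, IRF9 and IRF1), where 0.0109% of all genes were called and 8.68% had an unadjusted p under 0.05. By size, 1 of the 9, IRF9, was at least 1.5-fold lower in both lines, where 0.418% of all genes were. The list's median was -0.30, and 4 of 9 (44.4%) were lower and 2 (22.2%) higher in both lines, against 31.6% and 23.2% of all genes.

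**Figure D2:**
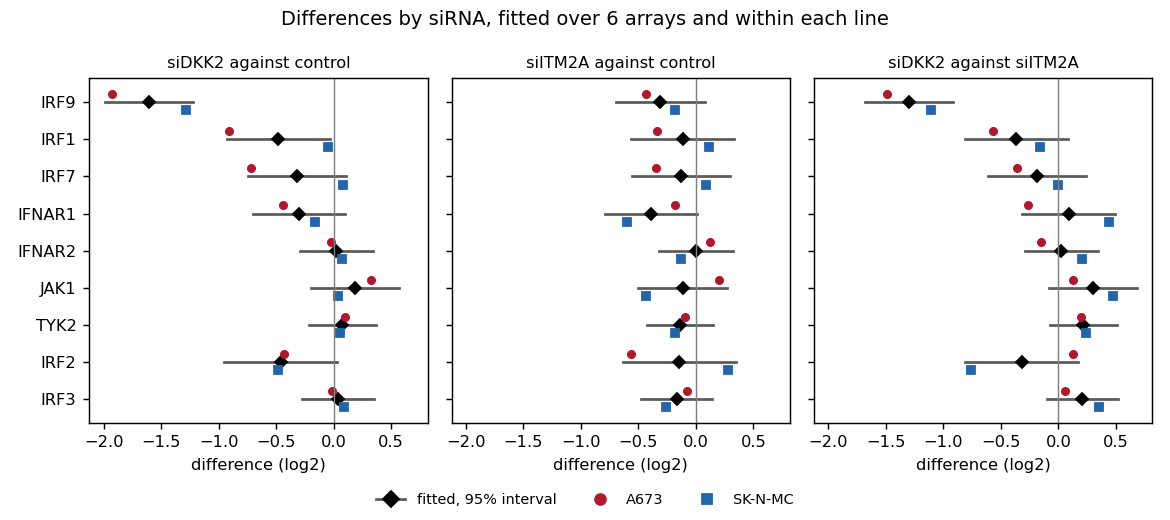
Fitted differences (log2) of the 9 genes for 3 comparisons, with 95% intervals (diamonds and bars), and the difference within A673 (circles) and SK-N-MC (squares). The interval of IRF9 lies below 0 for siDKK2 against control (-1.99 to -1.22) and against siITM2A (-1.68 to -0.91); for IRF1 it ends at -0.03 with siDKK2.

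With siITM2A against control, which uses the same control arrays, 0 of the 9 genes were called (limma, 0 at an unadjusted p under 0.05), where 0.0109% of all genes were, and in 0 the level was lower by 1.5-fold or more in each line, where 0.168% were. IRF9 differed by -0.44 (A673) and -0.18 (SK-N-MC; limma, -0.31 ± 0.17, adjusted p = 0.807). IFNAR1 had a fitted value of -0.39 ± 0.18, at -0.18 and -0.60 in the 2 lines (limma, adjusted p = 0.737); with 1 siITM2A array left out it was -0.67 (A673 left out) or -0.11 (SK-N-MC left out). With 1 control array left out the value of IRF9 was -0.08 (A673 left out) or -0.53 (SK-N-MC left out). IRF1 differed by -0.34 and 0.11, IRF7 by -0.35 and 0.09, and IRF2 by -0.56 and 0.28, each of opposite sign in the lines. JAK1 had opposite signs too, 0.20 (A673) and -0.44 (SK-N-MC). The median was -0.14 over the 9 genes and -0.03 over all genes.

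Between siDKK2 and siITM2A, a difference that does not use the control arrays' values, IRF9 stood at -1.49 (A673) and -1.11 (SK-N-MC). The siDKK2 level was 35.6% and 46.4% of the siITM2A level. The fitted difference of -1.30 ± 0.17 missed the threshold (limma, adjusted p = 0.106); other settings fell on either side. Adjusted p was 0.0366 with an intensity trend and 0.0251 from the 4 arrays of these groups alone or without either control array (1 residual degree of freedom). It was 0.0504 among genes at or above the median level, 0.0931 with centred arrays, 0.0997 with quantile normalization, 0.102 with the mean of all probe sets and 1.00 without the cell line in the fit. Without 1 siITM2A array it was 0.792 (A673) and 0.818 (SK-N-MC), and without 1 siDKK2 array 0.339 (A673) and 0.0154 (SK-N-MC), again with 1 array in an arm and the spread taken from the other groups. Of all genes 0.0869% had a lower fitted difference. In all, 0 of the 9 genes were called (limma, 1 at an unadjusted p under 0.05, IRF9, as had 8.32% of all genes), against 0.0163% of all genes called, and 1, IRF9, was at least 1.5-fold lower in both lines, against 0.353%. IRF2 differed by 0.13 (A673) and -0.76 (SK-N-MC) (limma, adjusted p = 0.761). JAK1 (0.12 and 0.48), TYK2 (0.20 and 0.24) and IRF3 (0.06 and 0.35) had higher values with siDKK2 in both lines without passing.

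**Figure D3:**
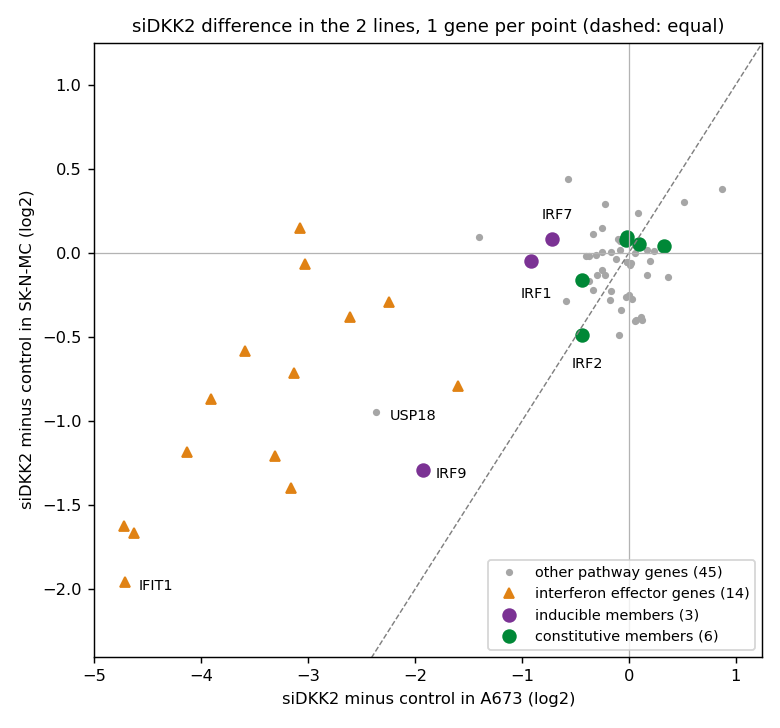
Difference of siDKK2 from control (log2) in A673 (x) and SK-N-MC (y) for the inducible and constitutive genes of the list, 14 interferon effector genes and 45 other pathway genes; the dashed line marks equal differences. IRF9 lies at -1.93 and -1.29, some effector genes start from dim values in SK-N-MC, and the 6 constitutive genes lie between -0.49 and 0.33 on both axes.

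The lines themselves differed in 4 of the 9 genes, all higher in A673 (limma, adjusted p under 0.05), where 28.5% of all genes were called, in either direction. The 4 were IRF2, IRF9, IRF1 and IFNAR2. The 3 arrays of a line differ in siRNA and no repeat cultures are named, so the test measures spread over siRNAs and not between cultures of a line. IRF2 was higher in A673 by 1.38 ± 0.18, 2.60-fold (n = 3 siRNAs; limma, adjusted p = 0.000481), with 1.64 on the control arrays, 1.69 with siDKK2 and 0.80 with siITM2A. IRF9 was higher by 1.10 ± 0.14 (limma, adjusted p = 0.000439), a call that was lost without the siRNA term in the fit (adjusted p = 0.133). IRF1 was higher by 0.84 ± 0.16 (limma, adjusted p = 0.00431) and IFNAR2 by 0.68 ± 0.11, 1.60-fold (limma, adjusted p = 0.00224). IRF2 and IRF9 were at least 1.5-fold higher with every siRNA, 2 of 9 genes against 6.54% of all genes.

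The other 5 genes did not pass between the lines. IRF7 had the widest fitted value among them, 0.28 ± 0.15 (limma, adjusted p = 0.230), at 0.70 on the control arrays and -0.10 with siDKK2, and from 0.08 to 0.48 with 1 array left out. For IFNAR1 the difference was 0.03 (95% interval -0.30 to 0.36), for JAK1 -0.01 (-0.32 to 0.31), for TYK2 -0.11 (-0.35 to 0.12) and for IRF3 0.06 (-0.19 to 0.32). The gap of IRF9 between the lines was 1.40 on the control arrays, 0.76 with siDKK2 and 1.14 with siITM2A. The median of the 14 gaps of the effector genes was 2.84, -0.05 and 1.995 on the same arrays. With siDKK2 some effector genes were dim in both lines (MX1 2.85 and 2.89, IFIT2 2.85 and 2.81), with little room for a gap. Others, such as IFI6 (6.07 and 6.25), were not. With every siRNA 6 of the 14 effector genes (42.9%) stood higher in A673, as IRF9 did, against 24.6% of all genes. By 1.5-fold or more 2 of the 14 did, ISG15 (1.51, 0.70 and 1.26) and OAS3 (3.27, 1.17 and 2.84), against 6.54% of all genes.

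**Figure D4:**
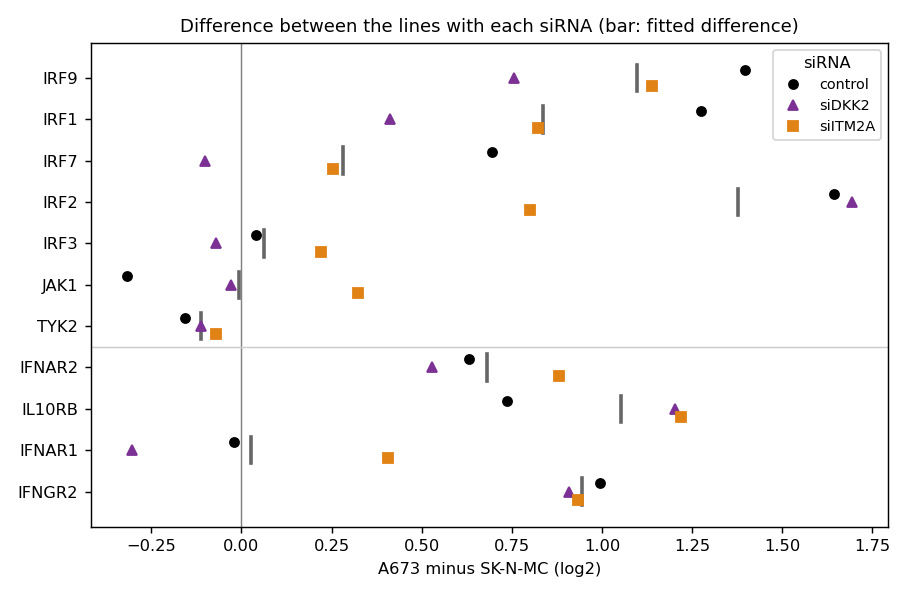
A673 minus SK-N-MC (log2) with the control siRNA (circles), siDKK2 (triangles) and siITM2A (squares) and the fitted difference (bars), for the 9 genes and for IL10RB and IFNGR2. Below the horizontal line are the receptor genes of chromosome 21 in their order along it; IFNAR1 lies near 0 (0.03) between IL10RB (1.05) and IFNGR2 (0.94).

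Other genes of the pathway came from lists of interferons, further receptors and kinases, STATs, IRFs, the kinases of IRF3 and IRF7, and brakes on signalling. Of these 52 genes 45 were measured, and 0 were called for siDKK2, siITM2A or the difference between them (limma, 4, 1 and 3 at an unadjusted p under 0.05, or 8.89%, 2.22% and 6.67%, against 8.68%, 6.91% and 8.32% of all genes). These shares are near or below those of all genes. Their median difference was -0.12 with siDKK2 and -0.02 with siITM2A. With siDKK2 1 of the 45, USP18, was lower by 1.5-fold or more in each line, against 0.418% of all genes. With siITM2A 0 were, against 0.168%. USP18, an interferon-induced protease that binds IFNAR2 and dampens its signal, stood at 6.55, 4.19 and 6.06 with control siRNA, siDKK2 and siITM2A in A673 and at 4.28, 3.33 and 3.46 in SK-N-MC. Its siDKK2 difference was -1.65 ± 0.34 (limma, adjusted p = 0.288). SOCS1, an inhibitor of the JAK kinases, had higher values with siDKK2 in both lines (0.51 and 0.30; limma, adjusted p = 0.460).

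Most of the interferon genes themselves were dim. Of 21 listed 16 were measured, and 15 of them lay below the median over genes on every array. The exception was IFNL3, at 4.86 to 5.73. IFNB1, the interferon gene that most cell types switch on first, stood between 1.79 and 2.03. Apart from IFNL2 and IFNL3, near-identical copies whose probe sets cannot be kept apart with certainty, the 14 others ran from 1.66 to 2.83. With siDKK2 IFNL2 differed by -1.40 (A673) and 0.10 (SK-N-MC), and IFNL3 by 0.87 and 0.38. Among the STATs measured, STAT6, the transducer of interleukin 4 signals, differed by -0.59 and -0.29 with siDKK2 and did not pass (limma, adjusted p = 0.475).

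Between the lines 9 of the 45 (20.0%) were called, 5 higher and 4 lower in A673 (limma), a smaller share than the 28.5% of all genes. Higher were the receptor chains IFNGR2 (0.94 ± 0.10, adjusted p = 0.000212, limma) and IL10RB (1.05 ± 0.13), the kinase TBK1 that activates IRF3 (0.66 ± 0.11), and the brakes SOCS3 (0.58 ± 0.14) and USP18 (1.91 ± 0.28). Lower were IFNLR1 (-0.43 ± 0.13), STAT3 (-0.56 ± 0.11), STAT5B (-0.62 ± 0.12) and CISH (-0.61 ± 0.15).

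For each measured inducible factor, the 5 genes with the most similar level over the 6 arrays were taken by Pearson's r among 2073 genes with an SD of at least 0.5. The arrays share 2 lines and 3 siRNAs, so r mixes both kinds of difference and is given as a description. For IRF9 they were EIF2AK2 (r = 0.986), ISG15 (0.983), IFIT1 (0.978), IFI44 (0.972) and SLC2A3 (0.968). For IRF7 they were OAS2 (0.994), CCL5 (0.988), MX2 (0.987), IFI27 (0.974) and DTX2 (0.972), and for IRF1 S100A16 (0.996), VWA5A (0.992), CD68 (0.990), PSMB8 (0.989) and IFI16 (0.985). No gene was in more than 1 of the 3 sets, but sets of 5 out of 2073 genes are too small for this to show distinct profiles. The neighbours of IRF9 were lower with siDKK2 in both lines (ISG15 -1.59 and -0.79, SLC2A3 -1.30 and -0.77). Those of IRF7 ran from -3.07 to -1.20 in A673 and from -0.38 (IFI27) to 0.15 (OAS2) in SK-N-MC. Neighbours were picked for following their factor on these same arrays, so these differences repeat the choice and are no separate result.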

How the data were processed

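Each sample was total RNA, amplified, labelled with biotin and read on 1 Affymetrix array. For summarisation, the submitters' processing notes list RMA and Affymetrix Expression Console; their settings and the genome build were not stated there. The deposited values were treated as log2, because they run from 1.02 to 13.35; the authors' labels state no scale. No scanner files were used, so the background of each probe set is unknown.

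Of 33297 probe sets, 19460 had 1 symbol in the platform annotation; 0 columns went unused. All 18417 genes were fitted on 6 arrays with limma 3.58.1 in R 4.3.3 (siRNA plus cell line, 2 residual degrees of freedom, 8.28 after moderation), with Benjamini-Hochberg adjustment over all genes and a threshold of 0.05. Same-line arrays pair the siRNA groups, per the labels, so the line is the block. Nothing in the labels names repeat cultures. The fit was tested on simulated data.

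The genes and lists were chosen with earlier results of these data known, so no list's direction is independent evidence. Named were all members, list genes past the threshold or 1.5-fold in both lines, USP18, SOCS1 and nearest neighbours; IFNB1, IFNL2, IFNL3, STAT6 and effector genes were named after their values were seen. Planned protein comparisons were not run.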

Additional observations from a re-analysis of the deposited data

How the results depend on the processing

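Of 455 alternative values of the 36 differences (9 genes, 4 comparisons), 415 kept direction and side of the threshold, 10 moved past it, 1 no longer passed and 29 changed sign. The cause of these changes was not tested. Many of the 455 differences could not change. Each of the 9 genes has 1 probe set, so averaging probe sets left its differences as they were. Leaving out arrays of an siRNA outside the comparison did the same. Between the lines, leaving out either array of an siRNA gives the same fit. The count of 415 therefore cannot show that the differences were stable. For siDKK2 against control the number of genes called went from 0 to 1 (IRF9) with the filter at the median level, the intensity trend and centred arrays, and ran from 0 to 1 when an array was left out. For siDKK2 against siITM2A it went from 0 to 1 (IRF9) with the trend and with only the arrays compared, and ran from 0 to 1 with an array left out. Between the lines it was 4, and 3 with the filter, which removed IRF1, or without the siRNA term in the fit.

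The lines pair the siRNA groups. Without this replicate block the siRNA comparisons called 0 of 18417 genes and IRF9 had an adjusted p of 1.00 (limma). Calls over all genes for siDKK2 against control were 2, but 7 with the trend, 3 with the filter or centring, 0 without the block or with only the arrays compared, and 0 to 60 with an array left out (45 without the SK-N-MC control array, 60 without its siDKK2 array). For siITM2A they were 2, and 0 to 4 with an array left out. For siDKK2 against siITM2A they were 3, but 6 with the filter, 16 with the trend, 18 with only the arrays compared and 1 to 50 with an array left out.

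IFNAR2 with siITM2A turned positive with centred arrays (0.00079) and quantile normalization (0.0131), and IFNAR1 between the lines negative with centring (-0.011). With an array left out, siDKK2 differences ran from -0.087 to 0.138 for IFNAR2, -0.048 to 0.416 for JAK1 and -0.062 to 0.140 for IRF3. With siITM2A they ran from -0.152 to 0.149 for IFNAR2, -0.365 to 0.132 for JAK1, -0.444 to 0.213 for IRF1, -0.578 to 0.290 for IRF2 and -0.441 to 0.178 for IRF7. Between siDKK2 and siITM2A they ran from -0.193 to 0.374 for IFNAR1, -0.123 to 0.177 for IFNAR2, -0.751 to 0.117 for IRF2 and -0.473 to 0.104 for IRF7. Between the lines they ran from -0.161 to 0.193 for IFNAR1, -0.173 to 0.148 for JAK1 and -0.015 to 0.131 for IRF3. Of 102 alternative medians of the lists, 95 moved by less than their spread, which was taken over the medians within single lines or single siRNAs. A spread over so few values can be wide, so this count cannot show that the medians were stable. The siITM2A median of the inducible factors went from -0.13 to 0.18 without the A673 control array and was still counted among the 95.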

Other observations

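The genes of 4 class II cytokine receptor chains lie side by side on chromosome 21, in the order IFNAR2, IL10RB, IFNAR1 and IFNGR2. IFNAR2 pairs with IFNAR1 in the type I interferon receptor, IL10RB serves the receptors of interleukin 10 and of the lambda interferons, and IFNGR2 serves that of interferon gamma. Between the lines 3 of the 4 were higher in A673 with every siRNA, against 24.6% of all genes. IFNAR2 was higher by 0.63, 0.53 and 0.88 on the control, siDKK2 and siITM2A arrays, IL10RB by 0.74, 1.20 and 1.22, and IFNGR2 by 0.99, 0.91 and 0.93. The annotation holds a read-through gene, IFNAR2-IL10RB, so the readings of IFNAR2 and IL10RB may not be separate. IFNAR1, which lies between IL10RB and IFNGR2, differed by -0.02, -0.30 and 0.41 on the same arrays. This set of neighbours was put together after the values were seen, and no copy number was measured.

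A further pattern concerns IRF2, the factor with the largest gap between the lines among the 9 genes. Its gap was 1.64 and 1.69 with the control siRNA and siDKK2 and 0.80 with siITM2A, because siITM2A went with a lower value in A673 (6.48 against 7.04) and a higher one in SK-N-MC (5.68 against 5.40). Each of these values rests on 1 array, and the difference between the lines' responses was not tested.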
